A study of Mus musculus with 12 samples.

Results

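The 38 genes described here encode proteins that burn or store fatty acids: the carnitine shuttle, the mitochondrial and peroxisomal β-oxidation enzymes, electron transfer, their regulators, the acyl-CoA synthetases, and proteins of lipid binding, storage and lipolysis. They were chosen by gene name, not by level. All 38 were found on the array, with 50 of its 55681 probes and 38 of its 34739 gene names. Of the 38, 30 were well above background on all 12 arrays by the scanner software's own call, and none was below it on every array. Levels are given as log2 of the processed signal relative to the 75th percentile of the same array, so 0 is that percentile, and differences are on the same log2 scale. Where a gene had several probes, its brightest probe stood for it.

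RNA of 4 groups, 3 samples in each, was hybridized to Agilent mouse arrays with 1 dye. The op/op renal group and the WT renal group held kidney cells that autoMACS had sorted for CD11b and CD11c, myeloid surface proteins, from homozygous and wild-type mice of the B6C3Fe a/a-Csf1op/J line, and mice of both genotypes had received 80 mg/kg glyoxylate (GOX) for 6 days. The op mutation inactivates Csf1, the gene of macrophage colony-stimulating factor (M-CSF), in the whole animal, and op/op mice lack many of their macrophages but keep some. The M1 group held bone marrow derived macrophages stimulated with LPS and GM-CSF, and the M2 group held those stimulated with IL-4 and M-CSF, so the M2 cells were given the factor that op/op mice lack. The bone marrow samples carry the same strain label, with no genotype, and the labels give no age for any group. Nor do they name separate animals or cultures for the replicates, so the p-values rest on a spread that may be only technical.

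Fatty acids are first joined to coenzyme A by acyl-CoA synthetases. Carnitine palmitoyltransferases then carry long chains into mitochondria, where each turn of β-oxidation passes through a dehydrogenase, a hydratase, a second dehydrogenase and a thiolase, and peroxisomes shorten the longest and the branched chains. Macrophages stimulated with IL-4 are known for taking up and oxidising fatty acids, macrophages stimulated with LPS for storing them in droplets, and the proximal tubule of the kidney for running mostly on fatty acid oxidation.

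Several features of the arrays bear on the values. Between 63.0% and 68.7% of probes were well above background on the op/op arrays, 76.1% to 79.3% on the WT arrays, 72.5% to 75.1% on the M1 arrays and 64.3% to 65.0% on the M2 arrays. WT replicate 1 was alone on 1 slide, another slide held the 5 further renal arrays, and all 6 bone marrow arrays were on the last. The op/op and M2 arrays lay in the lower row of their slides and the WT and M1 arrays in the upper row, so row and group cannot be told apart, nor can slide and the contrast of renal with bone marrow. Renal arrays also varied more, with a median residual SD of 0.37 against 0.16 on the bone marrow arrays, and the fit pools both. Marker lists matched the 2 stimulations: all 6 M1 marker genes were higher in M1 and 4 of 6 M2 marker genes were lower in M1 than in M2. In the renal cells macrophage markers were present, with all 15 well above background on every op/op and WT array, but so were the 20 proximal tubule markers on every WT array and 15 of them on every op/op array. Of the same 20 tubule markers, 12 were also well above background on every M1 array and 10 on every M2 array.

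**Figure D1:**
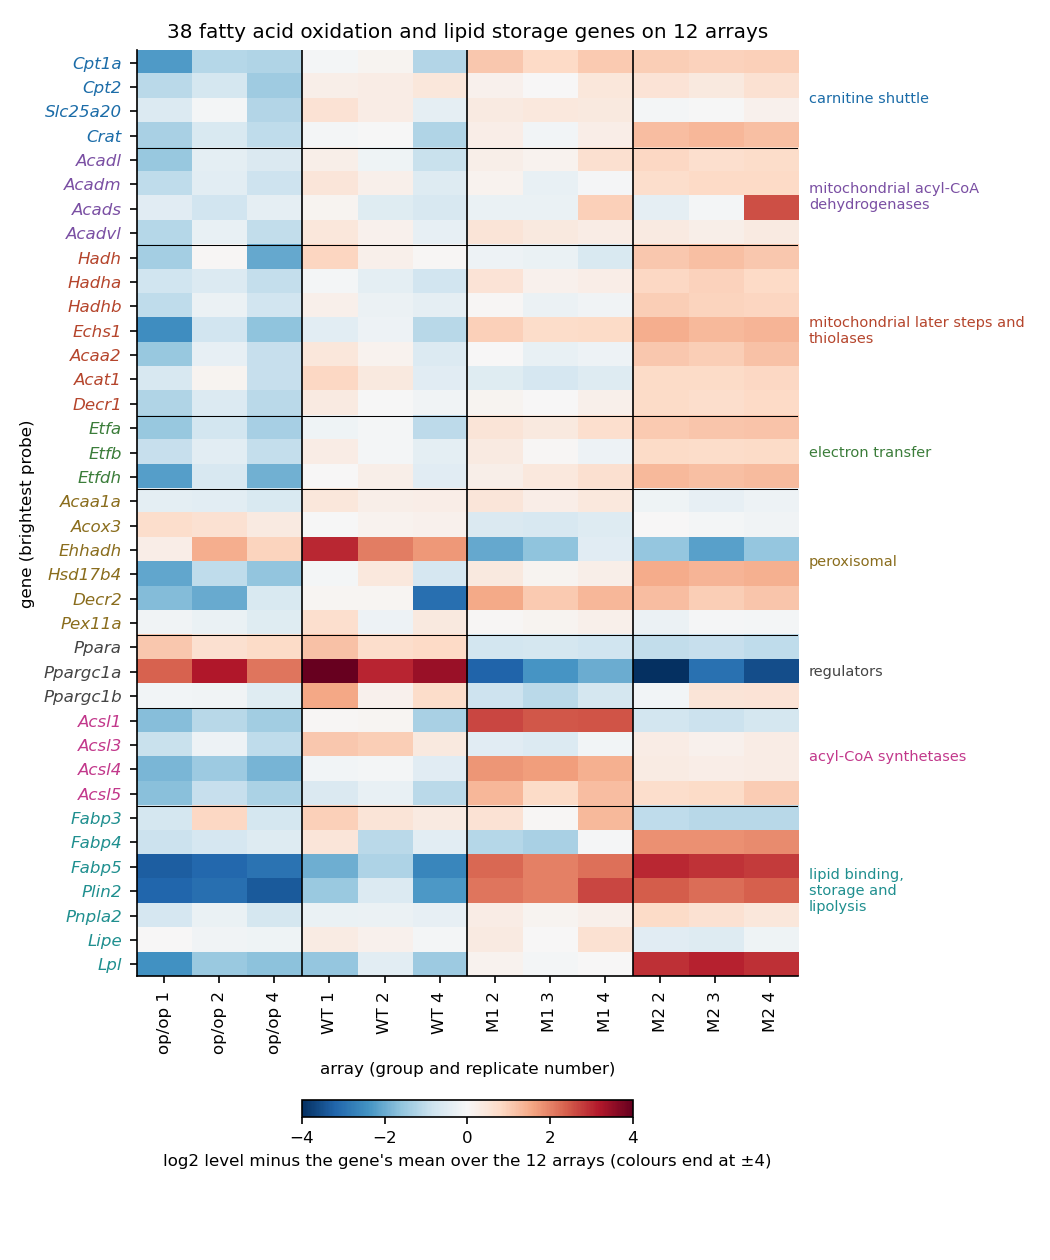
Heat map of the 38 genes (rows, grouped and coloured by role) on the 12 arrays (columns, op/op, WT, M1 and M2). Colour is the log2 level minus the gene's mean over the 12 arrays. Most rows are bluest on the op/op arrays, while Ehhadh, Ppara and Ppargc1a are redder on the renal arrays and Fabp5 and Plin2 on the bone marrow arrays.

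The op/op and WT renal cells were compared first. Genes of fatty acid oxidation were mostly lower in op/op than in WT renal cells: 23 of 36 tested were lower and 1, Acox3, was higher, while 35 of the 36 had a negative difference. Among all 27020 genes tested, 28.5% were called lower, 31% higher and 59.5% in either direction (limma, adjusted p under 0.05). The median difference of the 36 was -0.80 against 0.16 for all genes tested, which puts the 36 at -0.96 relative to all genes. Of the 24 calls, 14 were at least 2-fold, and in 14 of the 36, 13 lower and 1 higher in op/op, the op/op and WT arrays did not overlap. Over all genes tested, 3535 higher and 3546 lower of the 16070 calls were at least 2-fold. Among all genes tested the arrays did not overlap in 58.8%, with 26.2% lower and 32.6% higher in op/op. Fewer cells of a type and less RNA per cell cannot be told apart in these bulk samples.

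Markers of several cell types also differed between op/op and WT. Of 15 macrophage markers 12 were lower in op/op and none higher, with a median of -1.55. Among them, Adgre1 was lower (-2.12), while Csf1r (0.08) and Itgam (0.31) did not pass the test. Of 20 proximal tubule markers 16 were lower, with a median of -1.62, and their summed signal, in units of each array's 75th percentile, was 32.1 to 81.8 on the op/op arrays and 129 to 267 on the WT arrays. The summed signal of the macrophage markers overlapped, at 297 to 372 in op/op and 311 to 462 in WT. Of 5 fibroblast markers tested 2 were lower and none higher, with a median of -0.41. In the other direction, 4 of 5 T and NK cell markers tested and 4 of 5 B cell markers were higher in op/op. So were 5 of 6 adipocyte markers tested. The summed signal of the adipocyte list was 4.67 to 5.68 in op/op and 3.14 to 3.41 in WT. The adipocyte marker that did not pass, Lipe (-0.25), is itself one of the lipolysis genes described here. Its signal is part of that sum, so the list is not fully separate from those genes. Among 11 distal nephron and collecting duct markers tested 4 were higher and 1 lower. The part of these cells in the result was not tested.

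The renal arrays of a group differed from one another. Among the op/op arrays, replicate 2 was the highest for 28 of the 36 genes. Among the WT arrays, replicate 4 was the lowest for 27, and it lay above all op/op arrays for 17 genes, against 34 for WT replicate 1 and 29 for WT replicate 2. With slide as a term in the fit, so that only the slide holding both genotypes decides, 13 genes were lower. Leaving out op/op replicate 1 also left 13, and leaving out WT replicate 4 gave 29.

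**Figure D2:**
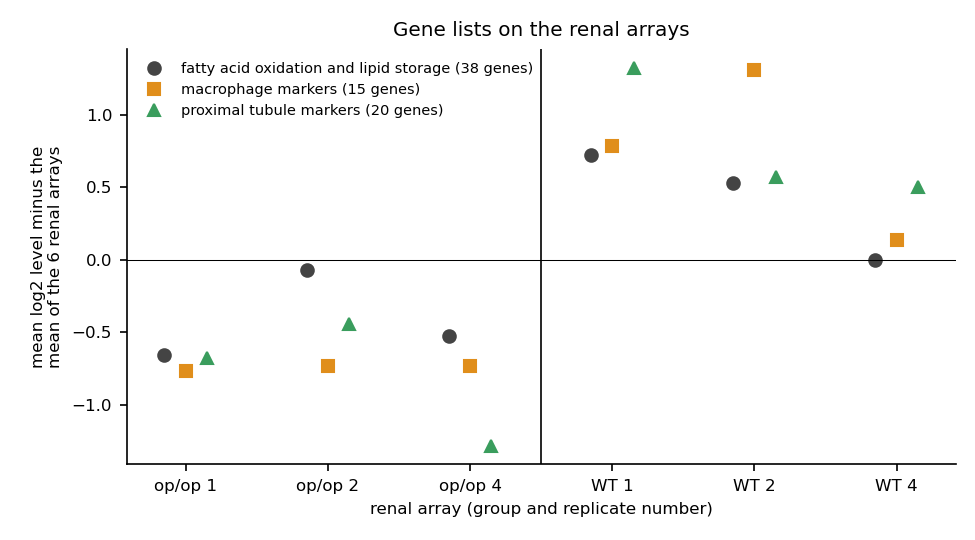
Mean log2 level of the 38 genes (circles), the 15 macrophage markers (squares) and the 20 proximal tubule markers (triangles) on each renal array, minus the mean of the list over the 6 renal arrays. All 3 lists lie higher on the WT arrays than on the op/op arrays, and WT replicate 4 lies nearest to the op/op arrays for each list.

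In the carnitine shuttle 3 of 4 genes were lower in op/op. Cpt1a, the malonyl-CoA-sensitive palmitoyltransferase of the outer mitochondrial membrane, had levels of -0.31, 0.79 and 0.73 in op/op and 1.86, 2.06 and 0.76 in WT. WT replicate 4 fell within the op/op range, so the groups overlapped. Its difference was -1.16 ± 0.34 (SE, adjusted p = 0.015), and with slide as a term it was -1.01 (adjusted p = 0.051). Cpt2, which re-forms acyl-CoA inside the mitochondrion, averaged -2.03 ± 0.36 in op/op and -0.63 ± 0.10 in WT (SD, n = 3 each), a 2.63-fold lower level with no overlap (adjusted p = 0.0007). Slc25a20, the carnitine-acylcarnitine carrier of the inner membrane, was lower by less (-0.77, adjusted p = 0.036). Its groups overlapped, it was above background on 2 of 3 op/op arrays, and its call was kept in 12 of 20 alternatives. Crat, carnitine acetyltransferase, did not pass (-0.54, adjusted p = 0.13).

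Of the acyl-CoA dehydrogenases, which catalyse the first step of each turn, the medium-chain enzyme Acadm (-0.81) and the very-long-chain enzyme Acadvl (-0.90) were lower. The long-chain enzyme Acadl had a difference of -0.55 (adjusted p = 0.16). Acads, the short-chain enzyme, was not tested, since it was well above background on no op/op or WT array. Both called differences were under 2-fold, and op/op and WT arrays overlapped for each.

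Of 7 genes of the later mitochondrial steps 5 were lower. Hadh, the short-chain hydroxyacyl-CoA dehydrogenase, was measured above background on 1 of 3 op/op arrays, and its difference of -1.49 ± 0.42 (adjusted p = 0.011) became 0.16 when dim signals were raised to a floor. Echs1, the short-chain enoyl-CoA hydratase, was lower by 1.03 on the log2 scale (adjusted p = 0.029) with overlapping groups, since op/op replicate 2 (-0.17) lay above WT replicate 4 (-0.53). Decr1, the dienoyl-CoA reductase needed for unsaturated chains, averaged 1.5 ± 0.36 in op/op and 2.51 ± 0.26 in WT (SD, n = 3 each), with no overlap (adjusted p = 0.0024). The thiolase Acaa2 (-0.92) and the trifunctional protein subunit Hadhb (-0.54) were also lower, but the other trifunctional subunit Hadha (-0.35) and the acetoacetyl-CoA thiolase Acat1 (-0.73) did not pass.

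All 3 genes that pass electrons from the dehydrogenases to the respiratory chain were lower in op/op. Etfdh, the ubiquinone oxidoreductase, had levels of -4.04, -2.49 and -3.76 in op/op and -1.83, -1.61 and -2.29 in WT. Every op/op array lay below every WT array, and op/op was above background on 1 of 3 arrays. The difference of -1.52 ± 0.34 (adjusted p = 0.004) no longer passed with normexp background correction. Etfa (-0.76) and Etfb (-0.70), the subunits of the flavoprotein, were lower by less than 2-fold.

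Of 5 peroxisomal genes tested 4 were lower and 1 was higher. Hsd17b4, the peroxisomal multifunctional enzyme of branched and very long chains, averaged -1.46 ± 0.54 in op/op and -0.03 ± 0.54 in WT (SD, n = 3 each), and all op/op arrays were below all WT arrays (adjusted p = 0.0028). Acaa1a, the peroxisomal thiolase, was 1.72-fold lower with a narrow spread (SD 0.11 in op/op and 0.12 in WT, adjusted p = 0.0019). Ehhadh, the bifunctional enzyme of the straight-chain route and a known target of PPARα, differed by -1.40 ± 0.45 (adjusted p = 0.02), with op/op above background on 1 of 3 arrays. Pex11a, a membrane protein of peroxisome division, was lower by 0.58 on the log2 scale. Decr2, the peroxisomal dienoyl-CoA reductase, was above background on no op/op array and on 2 of 3 WT arrays and was not tested.

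Acox3, the pristanoyl-CoA oxidase of branched chains, was the only gene called higher, and its probes disagreed. The brightest probe (chr5:35952411-35952470 in mm9, the build of the array's annotation) had levels of 1.66, 1.56 and 1.33 in op/op and 0.94, 1.08 and 1.11 in WT, a difference of 0.47 ± 0.15 (adjusted p = 0.017). At a second probe (chr5:35956215-35956274), op/op arrays had -0.55, -0.22 and -0.26 and WT arrays 1.5, 1.14 and 0.60. A dimmer probe (chr5:35954432-35954491) had -0.64, -0.80 and -1.30 in op/op and 0.83, 0.19 and 0.56 in WT. At all 3 probes the op/op and WT arrays were apart, but in opposite directions. The differences at these 2 probes were -1.42 and -1.44 (adjusted p = 0.0012 and 0.00097 over every probe). With the mean of the probes Acox3 was lower by 0.80 on the log2 scale, so its direction in op/op rests on the probe, and no gene was then higher. The 3 probes also split in renal against bone marrow cells, at 0.65, -0.39 and 0.48, each past the threshold.

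**Figure D3:**
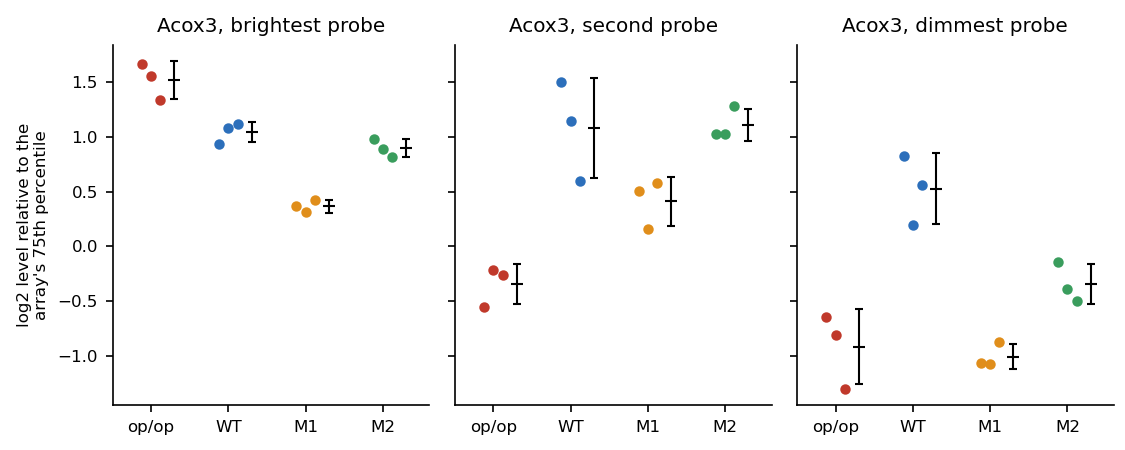
Log2 level of the 3 Acox3 probes on every array (points) with the group mean ± SD (black, n = 3), in op/op, WT, M1 and M2. At the brightest probe the op/op arrays lie above the WT arrays, and at the other 2 probes they lie below them. In M1 all 3 probes had lower means than in M2.

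Among the regulators, levels of Ppara, the nuclear receptor that induces fatty acid oxidation genes, were 1.67, 1.24 and 1.36 in op/op and 1.75, 1.30 and 1.37 in WT. Those values, of its brightest probe, interleave, and the difference was -0.05 ± 0.17 (adjusted p = 0.81). Its dimmer probes did not pass either, at 0.27 and -1.42 (adjusted p = 0.29 and 0.086 over every probe). The probe at -1.42 was above background on all 3 WT arrays and on no op/op array. Ppargc1a, a coactivator of mitochondrial genes, had 0.47, 1.32 and 0.25 in op/op and 2.31, 1.15 and 1.55 in WT. It did not pass at its brightest probe (-0.99, adjusted p = 0.064), but a dimmer probe did (-0.91, adjusted p = 0.016). That dimmer probe was above background on only 1 of 3 op/op arrays. Ppargc1b, its relative, was above background on all 3 WT arrays and on no op/op array, so it was at least 1.68-fold lower in op/op, a bound set by the lowest signals well above background (means of -3.62 in op/op and -2.55 in WT, adjusted p = 0.013).

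Of the 4 acyl-CoA synthetases 3 were lower in op/op. Acsl3, which sits on lipid droplets and the endoplasmic reticulum, had -1.52, -0.85 and -1.67 in op/op and 0.45, 0.34 and -0.23 in WT. Acsl4, which prefers arachidonic acid, had -0.19, 0.18 and -0.24 in op/op and 1.51, 1.55 and 1.16 in WT. Neither gene's groups overlapped. The differences were -1.53 ± 0.25 for Acsl3 (adjusted p = 0.0011) and -1.49 ± 0.18 for Acsl4 (adjusted p = 0.00041). Acsl1, the main isoform of oxidative tissues, averaged 1.03 ± 0.31 in op/op and 2.03 ± 0.78 in WT (SD, n = 3 each), lower with overlap (adjusted p = 0.018), and Acsl5 missed the threshold (-0.63, adjusted p = 0.0504).

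Of the 7 genes of lipid binding, storage and lipolysis, 2 were lower, and these included the widest difference of the 36 genes tested. Plin2, the coat protein of lipid droplets, had levels of -1.51, -1.35 and -1.70 in op/op and 0.16, 1.10 and -0.63 in WT. The op/op arrays lay close together and below every WT array, whose spread was wider. The difference was -1.73 ± 0.35, or 3.31-fold lower (adjusted p = 0.0026), and -1.75 with slide as a term. Fabp5, a fatty acid binding protein of macrophages and epithelia, had 0.11, 0.24 and 0.44 in op/op and 1.45, 2.15 and 0.79 in WT. These groups did not overlap either, and the difference was -1.20 ± 0.28 (adjusted p = 0.0048).

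The other fatty acid binding proteins did not pass. Fabp4, the binding protein of adipocytes and macrophages, had 1.56, 1.75 and 1.90 in op/op and 2.89, 1.33 and 1.98 in WT (-0.33, adjusted p = 0.46). Fabp3, the heart-type protein, had -0.25, 1.29 and -0.26 in op/op and 1.41, 0.97 and 0.80 in WT (-0.80, adjusted p = 0.11). In both, arrays of the 2 groups overlapped, Fabp3 because of op/op replicate 2. Lpl, the lipase that frees fatty acids from lipoproteins, had 0.91, 1.84 and 1.67 in op/op and 1.76, 2.91 and 1.87 in WT. It did not pass at its brightest probe (-0.71, adjusted p = 0.065), but its second probe did (-1.05, adjusted p = 0.021). The triglyceride lipase Pnpla2 (-0.27) and the hormone-sensitive lipase Lipe (-0.25) did not pass.

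Of the 24 calls, 8 passed under every alternative fit tried: Plin2, Fabp5, Acsl3, Acsl4, Cpt2, Decr1, Hsd17b4 and Acaa1a, all lower in op/op. With a 2-fold threshold added 7 of these remained, without Acaa1a. The call of Hadhb was kept least often, in 9 of 21 alternatives. A further 69 genes of the same pathways that are not among the 38 were also read. Of 63 tested, 28 were lower and 15 higher in op/op, with a median difference of -0.58. Among those with the smallest adjusted p were Slc27a2 (-2.80), the very-long-chain synthetase and transporter abundant in proximal tubule, Pex5 (-1.46), the import receptor of peroxisomes, and Hilpda (-2.16), an inhibitor of droplet lipolysis.

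**Figure D4:**
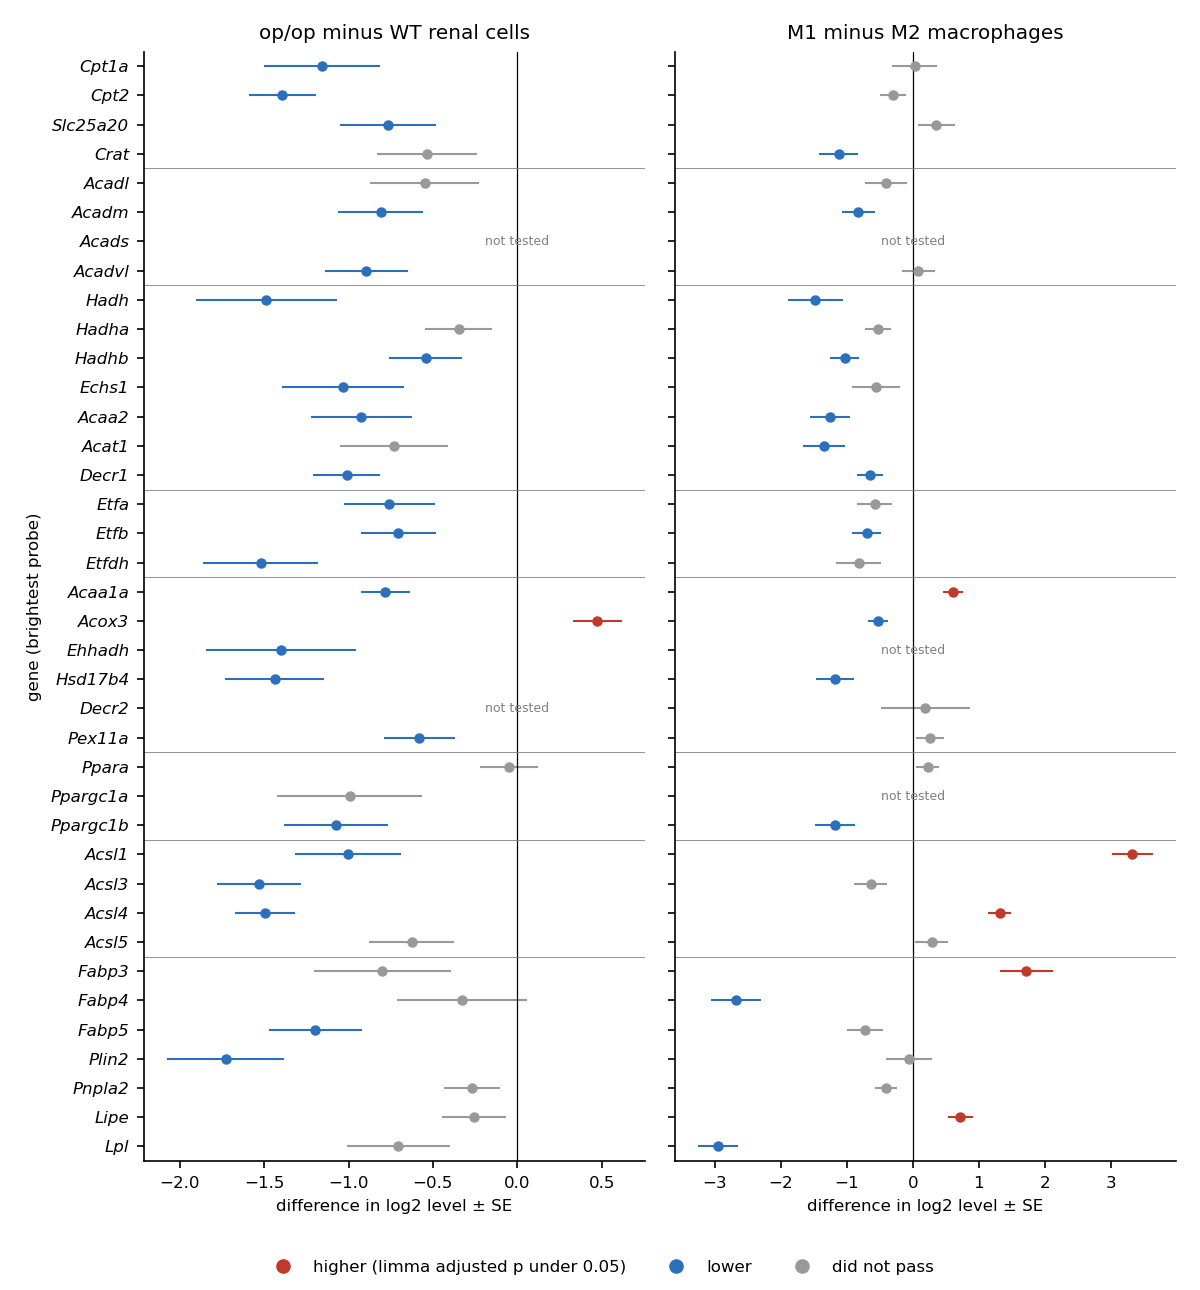
Difference in log2 level ± SE (horizontal axis) for each gene (rows, grouped by role), op/op minus WT on the left and M1 minus M2 on the right. Red and blue points were higher and lower (limma adjusted p under 0.05) and grey points did not pass. In op/op minus WT 23 points are blue and 1 is red. In M1 minus M2 13 are blue and 5 are red, Acsl1 lies farthest to the right and Lpl and Fabp4 farthest to the left.

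Promoter sequences of the genes were searched for motifs of factors known to regulate fatty acid oxidation and mitochondrial genes. RefSeq windows (build GRCm38.p6, 250 bases before to 50 after the start of transcription) were found for 29 of the 38 genes. The element known to bind PPAR with RXR, AGGTCA followed by 1 base of any kind and AGGTCA again, was matched on either strand with up to 2 mismatches in its 12 fixed letters in 4 of 29 genes (13.8%), Echs1, Etfa, Plin2 and Slc25a20, and in 4.40% of all 27025 genes. The NRF1 motif, GCGCA followed by any base and GCGC, was matched exactly in 3 of 29 (10.3%), Etfb, Etfdh and Ppara, and in 5.19% of all genes. The motif TNAAGGTCA, read by estrogen-related receptors, shares letters with the direct repeat and had no exact match in the 29 windows, against 1.43% of all genes. A match describes these letters only. The matches of 4 genes that were lower in op/op are shown in capitals, with flanks, 5′ to 3′ on the strand of the gene, all from the reverse strand of the chromosome.
Plin2, chr4:86670232-86670309, match starting 225 bases before the start: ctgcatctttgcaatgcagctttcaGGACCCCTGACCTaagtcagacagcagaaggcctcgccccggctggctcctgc
Echs1, chr7:140116452-140116544, match starting 83 bases before the start: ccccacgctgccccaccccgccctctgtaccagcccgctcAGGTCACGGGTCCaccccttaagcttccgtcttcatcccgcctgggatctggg
Etfa, chr9:55512268-55512360, match starting 77 bases before the start: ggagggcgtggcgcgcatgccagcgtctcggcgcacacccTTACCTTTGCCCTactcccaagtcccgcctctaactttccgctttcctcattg
Etfdh, chr3:79628846-79628935, NRF1 motif starting 128 bases before the start: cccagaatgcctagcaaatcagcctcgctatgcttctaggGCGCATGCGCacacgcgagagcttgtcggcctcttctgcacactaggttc
The Plin2 and Etfa matches run on the opposite strand to the gene. Each of the 3 direct repeat matches shown differs from the motif at 2 letters, and the Etfdh match is exact.

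The comparison of M1 with M2 macrophages gave a different order of genes. Lpl and Fabp4 were 7.73-fold and 6.39-fold lower in M1, while Acsl1 was higher by 3.33 on the log2 scale. In all, 13 of 35 genes tested were lower in M1 and 5 were higher. Among all 26145 genes tested, 8.93% were called lower, 8.85% higher and 17.8% in either direction. The median difference of the 35 was -0.53, against 0.00 for all genes. The M1 and M2 arrays did not overlap for 29 genes, 21 of them lower and 8 higher in M1, against 51.3% of all genes tested (26.6% lower and 24.7% higher), and 12 of the 18 calls were at least 2-fold. Over all genes tested, 1637 higher and 1187 lower of the 4650 calls were at least 2-fold. The spread was pooled with the more variable renal arrays: in a fit of the M1 and M2 arrays alone 20 genes were lower, and leaving out any 1 of the 6 arrays from the main fit left 4 to 8.

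Of the 7 genes of lipid binding, storage and lipolysis, 2 were lower and 2 higher in M1. Lpl had levels of 3.46, 3.23 and 3.32 in M1 and 6.24, 6.39 and 6.23 in M2, a difference of -2.95 ± 0.31 (adjusted p = 3.6e-05). Fabp4 had 1.28, 1.10 and 2.38 in M1 and 4.25, 4.23 and 4.30 in M2 (-2.68 ± 0.38, adjusted p = 0.00043). Both genes were lower on every M1 array than on any M2 array, and M1 replicate 4 stood above the other M1 arrays for Fabp4. Fabp3 ran the other way, with 1.04, 0.50 and 1.74 in M1 and -0.56, -0.67 and -0.65 in M2 (1.72 ± 0.41, adjusted p = 0.011). Its call did not pass without M1 replicate 4, the highest M1 array. Lipe had 0.28, -0.07 and 0.53 in M1 and -0.55, -0.59 and -0.27 in M2, also without overlap (0.72 ± 0.19, adjusted p = 0.021).

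Plin2 and Fabp5 did not pass between M1 and M2. Plin2 had 3.81, 3.67 and 4.32 in M1 and 4.06, 3.88 and 4.03 in M2, values that overlap (-0.06 ± 0.35, adjusted p = 0.94). Fabp5 had 5.69, 5.41 and 5.60 in M1 and 6.40, 6.28 and 6.19 in M2, apart but with adjusted p = 0.1 (-0.72 ± 0.28). Pnpla2 likewise lay apart and did not pass (-0.40, adjusted p = 0.12).

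Of the acyl-CoA synthetases, 2 were higher in M1. Acsl1 had 5.11, 4.90 and 4.95 in M1 and 1.68, 1.58 and 1.72 in M2, the widest difference among the genes (3.33 ± 0.31, adjusted p = 1.7e-05). Acsl4 had 3.39, 3.30 and 3.04 in M1 and 1.97, 1.89 and 1.94 in M2 (1.32 ± 0.18, adjusted p = 0.00027). Both genes were apart on all 6 arrays, with every M1 array the higher. Acsl3 had a difference of -0.64 (adjusted p = 0.1) and Acsl5 of 0.29 (adjusted p = 0.54), neither past the threshold.

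Calls among the mitochondrial genes past the carnitine shuttle were all lower in M1. All 7 genes of the later steps had negative differences, and 5 of them were lower in M1, with a median of -1.03 for the 7. Hadh had -3.32, -3.40 and -3.75 in M1 and -2.06, -1.94 and -2.05 in M2 (-1.48 ± 0.42, adjusted p = 0.029). Acat1 had -1.57, -1.76 and -1.62 in M1 and -0.32, -0.31 and -0.28 in M2 (-1.35 ± 0.32, adjusted p = 0.011). For both, the 3 M2 arrays lay close together above the M1 arrays. Acaa2 (-1.25), Hadhb (-1.03) and Decr1 (-0.65) were lower as well, and Hadha (-0.53) and Echs1 (-0.55) did not pass. Acadm (-0.82) was the only dehydrogenase called of 3 tested, and Etfb (-0.69, adjusted p = 0.049) the only call of 3 in electron transfer.

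In the carnitine shuttle only Crat was called, lower in M1 (-1.12, adjusted p = 0.021). Cpt1a had 3.02, 2.75 and 2.98 in M1 and 2.92, 2.85 and 2.90 in M2, which overlap (0.03 ± 0.34, adjusted p = 0.97), and Cpt2 had a difference of -0.30. Peroxisomal genes were called in both directions: Acaa1a was higher in M1 (0.61, adjusted p = 0.012), and Hsd17b4 (-1.18) and Acox3 (-0.53, brightest probe) were lower. Of the regulators, Ppargc1b was lower in M1 (-1.18, adjusted p = 0.02). Ppara had -0.16, -0.10 and -0.23 in M1 and -0.40, -0.34 and -0.42 in M2, apart by a small margin that did not pass (0.22, adjusted p = 0.46). Ppargc1a was above background on 2 of 3 M1 arrays and no M2 array and was not tested, nor were Ehhadh and Acads.

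Of the 18 calls between M1 and M2, 6 passed under every alternative fit tried, and each was at least 2-fold: Acsl1 and Acsl4, higher in M1, and Lpl, Fabp4, Acat1 and Hadhb, lower. Among the other genes of the pathways, 10 of 59 tested were lower in M1 and 4 were higher, with a median of -0.09. The 4 with the smallest adjusted p were all lower in M1. They were Pparg (-3.66), the nuclear receptor of lipid storage, Mgll (-3.11), which hydrolyses monoglycerides, Lipa (-3.11), the lysosomal acid lipase, and Hsd17b10 (-1.13), a mitochondrial dehydrogenase of short branched chains.

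The differences in op/op against WT and in M1 against M2 come from different arrays. Their calls are not independent, since the fit takes 1 spread per gene from all 12 arrays. Of the 23 genes lower in op/op, 8 were also lower in M1, 3 were higher in M1, 11 did not pass there and 1 was not tested there. Of the 12 tested but not called in op/op, 4 were lower in M1 and 2 higher. Between M1 and M2, 13 of the 35 genes tested were lower in M1, against 8.93% of all genes tested. Acsl4 and Acsl1, lower in op/op and higher in M1, and Acaa1a were the 3 of the 23 in opposite directions. Lpl and Fabp4, the widest falls in M1, were not called in op/op, and Plin2, the widest fall in op/op, was not called in M1.

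**Figure D5:**
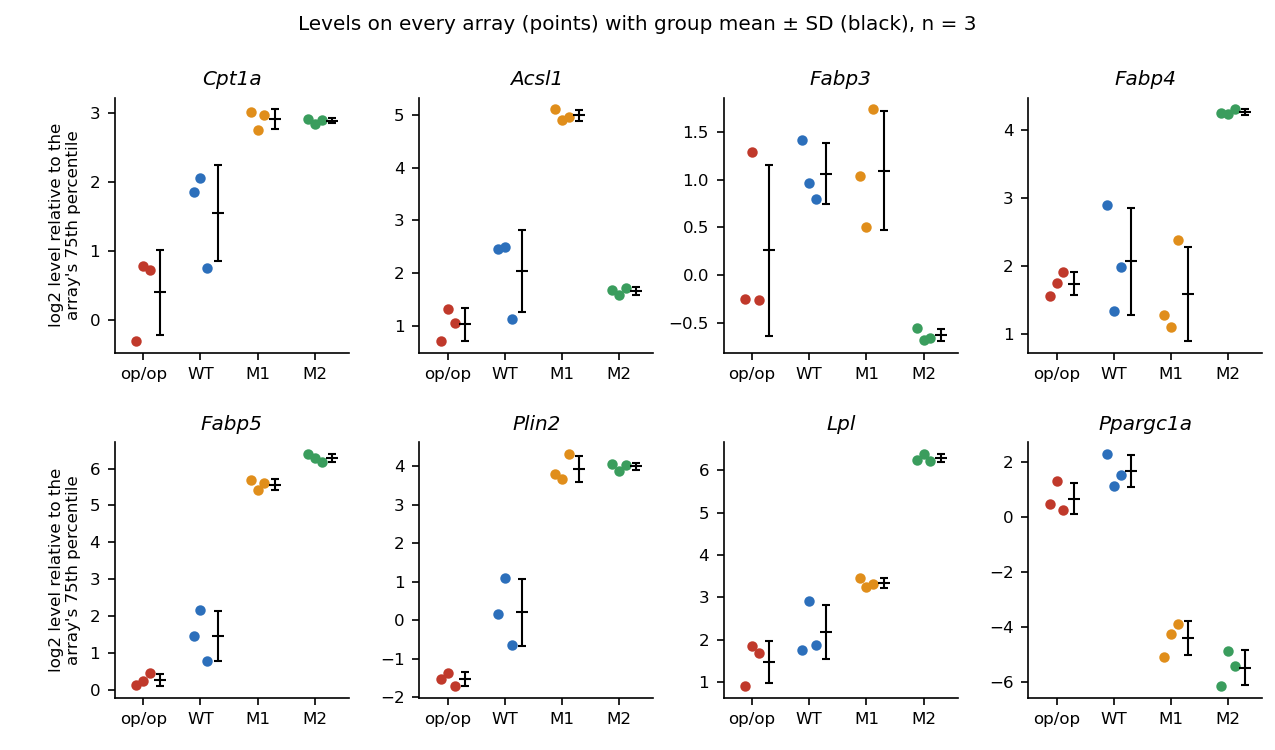
Log2 level relative to the array's 75th percentile (vertical axis, a scale of its own for each gene) on every array (points) with the group mean ± SD (black, n = 3), in op/op, WT, M1 and M2. Fabp5 and Plin2 lie lowest on the op/op arrays and highest on the bone marrow arrays, Acsl1 is highest in M1, Lpl and Fabp4 are highest in M2, and Ppargc1a is high only on the 6 renal arrays.

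Renal cells were then set against bone marrow derived macrophages. The lipid droplet and binding genes Plin2 and Fabp5 were 24.6-fold and 33.5-fold lower in the renal cells, and the regulators Ppargc1a and Ppara were higher. Of 37 genes tested 25 were lower and 5 higher in renal cells. Among all 28216 genes tested, 34.7% were called lower, 47.4% higher and 82.1% in either direction. The median of the 37 was -0.82 against 0.32 for all genes, or -1.13 relative to all genes. The renal and bone marrow arrays did not overlap for 14 of the 37, 11 lower and 3 higher in renal cells, against 46.7% of all genes tested (20.6% lower and 26.1% higher). This contrast sets sorted tissue cells against cultured cells, and op/op and WT values are averaged in it with equal weight.

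Fabp5 averaged 0.27 ± 0.17 in op/op and 1.46 ± 0.68 in WT, against 5.57 ± 0.15 in M1 and 6.29 ± 0.11 in M2 (SD, n = 3 each), so that every renal array, the values of which are given above, lay below every bone marrow array. The difference was -5.07 ± 0.20 (adjusted p = 5.8e-09). For Plin2 the means were -1.52 ± 0.17 in op/op and 0.21 ± 0.87 in WT, and 3.93 ± 0.34 in M1 and 3.99 ± 0.10 in M2. Its difference was -4.62 ± 0.25 (adjusted p = 3.2e-08), again with no overlap. Lpl was 7.92-fold lower in renal cells (-2.99 ± 0.22, adjusted p = 2.2e-07), although its M1 and M2 levels themselves differed. Markers of 2 other cell types were mostly lower in renal cells alongside these genes. Of 6 fibroblast markers 6 were lower (median -3.29), with summed signals of 1.89 to 2.20 in op/op and 2.51 to 2.86 in WT, against 77.7 to 110 in M1 and 54.8 to 64.9 in M2. Of 8 neutrophil markers 7 were lower and 1 higher (median -1.91). Their summed signals were 34.2 to 49.5 in op/op and 26.3 to 70.7 in WT, against 88.4 to 101 in M1 and 101 to 135 in M2. The part of these cells in the levels of Fabp5, Plin2 and Lpl was not tested.

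Decr2 had levels of -5.43, -5.70 and -4.31 in op/op and -3.62, -3.63 and -6.70 in WT, against -2.17, -2.64 and -2.38 in M1 and -2.45, -2.71 and -2.59 in M2. All renal arrays were below the bone marrow arrays, but op/op was above background on none of 3 arrays and WT on 2 of 3. In op/op it was thus at least 1.87-fold lower than in M1 and at least 1.64-fold lower than in M2. The mean difference of renal from bone marrow cells had an adjusted p of 0.00055. Cpt1a, whose array values are given above, was 3.80-fold lower in renal cells (adjusted p = 1.6e-05), and Echs1 4.58-fold lower (adjusted p = 8e-06). The synthetases Acsl4 (-1.93), Acsl5 (-1.93) and Acsl1 (-1.79) were lower too, and Acsl3 (0.12) did not pass. For Acsl1 the M1 and M2 levels differed: it averaged 1.03 in op/op, 2.03 in WT, 4.99 in M1 and 1.66 in M2. The WT mean was thus above the M2 mean. By role, all 3 electron transfer genes, 6 of 7 genes of the later mitochondrial steps, 3 of 3 dehydrogenases tested and 3 of 4 carnitine shuttle genes were lower.

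Of the regulators, Ppargc1a and Ppara were higher in renal cells on every array. Ppargc1a had 0.47, 1.32 and 0.25 in op/op and 2.31, 1.15 and 1.55 in WT, against -5.09, -4.26 and -3.88 in M1 and -6.15, -4.88 and -5.44 in M2. Every renal array lay far above every bone marrow array, and no M2 array was above background. Against M2 its level was at least 23.8-fold higher in op/op and at least 47.3-fold higher in WT, and the fitted renal difference had an adjusted p of 2.1e-08. Ppara was 3.30-fold higher in renal cells, with no overlap between renal and bone marrow arrays (1.72 ± 0.12, adjusted p = 1.7e-07). Ppargc1b passed in the fit of both renal groups together (0.56, adjusted p = 0.032), but it was well above background on no op/op array. It averaged -2.55 ± 0.69 in WT, against -4.23 ± 0.18 in M1 and -3.06 ± 0.37 in M2 (SD, n = 3 each), and in op/op it was at least 1.18-fold lower than in M2. Its call was kept in 14 of 24 alternatives and its difference reversed to -0.016 with quantile normalization.

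Ehhadh had -3.71, -2.51 and -3.07 in op/op and -0.96, -1.92 and -2.21 in WT, against -6.00, -5.57 and -4.42 in M1 and -5.51, -6.13 and -5.52 in M2. All renal arrays were above all bone marrow arrays, of which 1 M1 array and no M2 array was above background. In WT it was at least 4.59-fold higher than in M2 (renal against bone marrow adjusted p = 2.6e-06). Markers of other kidney cells mostly moved in the same direction. Of 20 proximal tubule markers 17 were higher and 2 lower in renal cells. Their summed signals were 32.1 to 81.8 in op/op and 129 to 267 in WT, against 18.6 to 22.0 in M1 and 8.93 to 10.3 in M2. Of the endothelial markers 10 of 10 were higher (median 4.51), with summed signals of 43.8 to 64.1 in op/op and 30.4 to 44.3 in WT, against 11.2 to 11.3 in M1 and 9.70 to 10.6 in M2. Of the distal nephron and collecting duct markers 11 of 11 tested were higher (median 3.14), with 25.5 to 78.4 in op/op and 46.5 to 111 in WT, against 2.24 to 2.49 in M1 and 2.09 to 2.15 in M2. The part of these cells in the renal levels of Ppargc1a, Ppara and Ehhadh was not tested. Of the macrophage markers 10 of 15 were lower in renal cells and 3 higher.

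Acox3 was higher at its brightest probe, as given above with its 2 other probes. The 7 genes that did not pass were Slc25a20, Acat1, Acaa1a, Pex11a, Acsl3, Fabp3 and Lipe. Of the 30 calls, 21 were kept under every alternative fit tried, and 16 of these were at least 2-fold. No fit could separate slide from this contrast, since renal and bone marrow arrays shared no slide. Among the other genes of the pathways 26 of 63 tested were lower and 26 higher in renal cells, with a median of 0.13. Among those with the smallest adjusted p were Slc27a2 (6.37), Acaca (2.77), the first enzyme of fatty acid synthesis, and Cd36 (-5.34), the fatty acid and scavenger receptor of macrophages.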

How the data were processed

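RNA from 12 samples (4 groups of 3) was amplified, labelled with Cy3 and hybridized to one-colour arrays, per the labels' protocols. Agilent Feature Extraction 10.7.3.1, per the file headers and the submitters' processing notes, gave the deposited intensity values, with background subtracted in the processed signal. The log2 values that the authors deposited in a further table were scaled to each array's 75th percentile, as tested against the scanner signals, and served as an alternative.

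Here spots of a probe were averaged after flagged spots were left out (30 probes lost every usable value on an array), and log2 of the processed signal minus that of the array's 75th percentile was used. Symbols were updated through RefSeq for 2288 probes. The brightest of a gene's probes stood for it, and 10 of the 38 genes had more than 1. A gene entered a comparison if all arrays of 1 or more of the groups compared showed it well above background. No probe of the 38 genes was saturated. Differences came from limma 3.58.1 under R 4.3.3, with the 12 arrays in 1 fit (8 residual degrees of freedom). Benjamini-Hochberg adjustment ran over all genes tested, and an adjusted p under 0.05 was called. The fit was also run on simulated data with independent noise, 1 spread per gene and no slide effect. Such data cannot test the pooling of renal and bone marrow spreads, or the slides. Where a probe was well above background on no array of a group, the bound uses per array, the probe's signal or the lowest one well above background, whichever is higher. Random blocks used statmod 1.5.0, and tables and figures Python 3.11.15. Arrays limit the precision by their number.

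The genes and lists were chosen with earlier results of these data known, so no list was tested. Array values were given for the 4 largest called rises and falls of each comparison, for Fabp3, Fabp4, Fabp5, Plin2, Lpl, Cpt1a, Ppara and Ppargc1a, and for a gene whose probes were called in opposite directions, and the 4 other pathway genes of smallest adjusted p were named, except that some genes the rule names are left out of the text. Correlations of same-numbered samples showed no clear pairing, though they were too few to exclude it. Alternatives were normexp (offset 50), quantile normalization, the deposited values, other filters, a floor at the 10th percentile of signals above background, the mean of probes, every probe, only the groups compared, robust eBayes with a trend, weighted arrays, the slide as a fixed or random term, a replicate block, a 2-fold threshold and leaving out each array. The fixed slide term was used only in op/op against WT. Centring on genes above background on all 12 arrays was added after the data had been seen.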

Additional observations from a re-analysis of the deposited data

How the results depend on the processing

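The medians of the genes tested kept their sign under every alternative. In op/op against WT, where 23 genes were lower and 1 higher, a 2-fold threshold gave 14 and 0, a fit of only the groups compared 12 and 0, slide as a term 13 lower and the mean of a gene's probes 0 higher. Leaving out each array gave 13 to 29 lower and 0 to 1 higher. In M1 against M2, where 13 were lower and 5 higher, array weights and a fit of only the groups compared gave 20 lower each, a 2-fold threshold 3 higher, and leaving out each array 4 to 8 lower and 2 to 5 higher. In renal against bone marrow cells, where 25 were lower and 5 higher, a 2-fold threshold gave 16 and 3, and a filter on all 12 arrays 2 higher, since it leaves fewer genes to test. Acox3 turned to -0.80 in op/op against WT with the mean of probes. Hadh, dim in op/op, turned to 0.16 there with a floor, and in renal against bone marrow cells to 0.079 with a floor and 0.030 with normexp. Ppargc1b turned to -0.016 in renal against bone marrow cells with quantile normalization. The causes were not tested.

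Same-numbered samples correlated at -0.27, 0.10 and -0.14 in op/op and WT and at -0.09, 0.25 and 0.19 in M1 and M2. These show no clear pairing, but so few values cannot exclude it. With the replicate number as a block, 23 genes were lower and 1 higher in op/op, 9 lower and 5 higher in M1, and 24 lower and 4 higher in renal cells.

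Counts over all genes moved by over 1.5 times in these cases. In op/op against WT (8370 higher and 7700 lower) only the groups compared gave 5161 and 4984, a 2-fold threshold 3535 and 3546, leaving out op/op replicate 1 5502 higher, and every probe 11559 lower. In M1 against M2 (2315 and 2335) array weights gave 4961 and 5390, only the groups compared 4571 and 5113, every probe 3495 higher, a floor 4289 lower against 2345 higher, a 2-fold threshold 1187 lower, and leaving out M1 replicate 3, M1 replicate 4 or M2 replicate 2 1537, 1536 and 1540 lower. In renal against bone marrow cells (13369 and 9800) a 2-fold threshold gave 8902 and 6365. The fit of every probe tested 40620 against 27020 in op/op against WT and 39267 against 26145 in M1 against M2. Its larger counts are over those larger sets. Signals near background limit Slc25a20, Hadh, Etfdh, Ehhadh, Decr2 and Ppargc1b in op/op.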
